A study of Mus musculus with 12 samples.

Results

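The circadian clock genes described here are 10 genes picked by symbol from the 54532 genes of the count table: Dbp, Tef, Nr1d1, Nr1d2, Per1, Per2, Per3, Cry1, Cry2 and Clock. All 10 were found and all 10 were among the 13571 genes with enough counts to be tested. They were measured by sequencing of poly(A) RNA from mouse keratinocytes in culture, the cells that make up most of the epidermis, in 12 libraries that form 4 groups of 3. The genes were picked with the wounding response in view, so their differences between wounded and unwounded cells are given as values with a standard error (SE) and no test. The differences between the 2 RNA fractions were tested.

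All groups had the genotype WT DP-BirA(1-584), that is, they carried residues 1 to 584 of desmoplakin, a desmosome protein, fused to the biotin ligase BirA. Every group received doxycycline at 2 µg/mL to turn on expression of the fusion, calcium to start differentiation, and biotin for 16 h. The unwounded groups were left intact and the wounded groups were scratch wounded before the biotin. Sucrose gradients gave a translating fraction, from which neutravidin resin took the biotin-labelled part, called cortical. What the resin left behind is called total, so the total fraction lacked the captured RNA. Each fraction was thus sampled without and with a wound. Titles call the 3 libraries of a group biological replicates, but whether they came from separate cultures was not given in the sources used here, and p-values measure the spread between these libraries. A time of day of harvest was not given either, and no time series was among the samples. A higher level of a rhythmic mRNA and a shift of its phase therefore cannot be told apart.

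The mammalian clock is a feedback loop of transcription factors. CLOCK and its partner BMAL1 (gene Arntl) bind E-box sequences and switch on the Period and Cryptochrome genes, whose proteins return to repress CLOCK and BMAL1. The same pair switches on the nuclear receptors REV-ERBα and REV-ERBβ (Nr1d1 and Nr1d2), which repress Arntl through ROR response elements, and the output factors DBP and TEF, which act through D-boxes. Keratinocytes hold such a clock, and in the epidermis it is known to time cell division and the response to stress.

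The stretches upstream of 4 members are printed because the loop described above runs through motifs in such sequences and because these members cover the output factors, the REV-ERBs and the Periods. They come from RefSeq promoter entries on GRCm38.p6, 250 bases upstream of an annotated start, cut back where an annotated exon reaches into them, and run 5′ to 3′ on the gene's strand. Capitals mark an exact match to the E-box CACGTG, the related AACGTG (searched as CACGTT on both strands) or the D-box TTATGTAA.

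Dbp, chr7:45704997-45705087, plus strand: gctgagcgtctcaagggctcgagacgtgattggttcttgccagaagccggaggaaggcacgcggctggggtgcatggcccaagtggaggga
Nr1d1, chr11:98775378-98775627, minus strand: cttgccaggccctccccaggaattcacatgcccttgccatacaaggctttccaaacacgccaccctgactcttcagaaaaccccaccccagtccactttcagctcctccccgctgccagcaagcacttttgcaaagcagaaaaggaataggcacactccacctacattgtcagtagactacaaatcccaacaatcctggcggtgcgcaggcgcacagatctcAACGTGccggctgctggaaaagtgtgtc
Per3, chr4:151044666-151044915, minus strand: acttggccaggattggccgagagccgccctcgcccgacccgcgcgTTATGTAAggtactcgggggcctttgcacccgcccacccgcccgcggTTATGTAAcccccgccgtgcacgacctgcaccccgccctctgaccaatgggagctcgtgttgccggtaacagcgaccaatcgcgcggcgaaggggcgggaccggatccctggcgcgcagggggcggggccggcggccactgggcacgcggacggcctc
Per1, chr11:69098699-69098947, plus strand: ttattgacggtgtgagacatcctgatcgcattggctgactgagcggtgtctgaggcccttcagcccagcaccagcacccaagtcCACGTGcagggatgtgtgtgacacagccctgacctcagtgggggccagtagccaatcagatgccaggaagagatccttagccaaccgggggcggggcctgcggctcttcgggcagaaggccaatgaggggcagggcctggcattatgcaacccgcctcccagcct

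RefSeq entries were matched for 9 of the 10 members, 13 starts in all. The E-box was present in the 250-base window of 4 of the 13, against 6.02% of 32851 mouse promoter entries. Those windows were both starts of Tef and 1 start each of Per1 and Cry1. Starts of 1 gene are not separate members. The related form of the E-box was in 3 of 13 (3.85% of all entries) and the D-box in 1 of 13 (0.819%). That one was Per3, which held the D-box 205 and 158 bases upstream of its start. Nr1d1 held AACGTG 28 bases upstream, Per1 held CACGTG 166 bases upstream of the start shown, and the stretch shown for Dbp held none of the motifs. The ROR response element, searched on both strands, was found in 0 of the 13 windows, against 0.35% of all entries. These matches are descriptions of the letters in short windows and say nothing of binding.

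Libraries held 8980013 to 23457548 counts. Replicate 1 of the wounded total group stood apart: 13117 genes had any count there (the other 11 libraries had 14393 to 16867), and 32.7% of the genes expected there at 10 to 20 counts were at 0, against 0.506% to 24.8% elsewhere. In each of the other groups replicate 1 also had the highest such share. It was 5.05% in unwounded total, 24.8% in unwounded cortical and 23.6% in wounded cortical libraries. Where a named value or call below moved with wounded total replicate 1, the value without that library is given beside. The 10 keratinocyte markers, Krt5 and Krt14 among them, summed to 10100 to 11200 CPM (counts divided by the TMM-adjusted library size) in unwounded total, 14900 in unwounded cortical, 16900 to 19500 in wounded total and 20500 to 20800 in wounded cortical libraries. Krt5, Krt14 and Perp made up most of that sum, and Krt1 was at 0 to 1.84 CPM. Krt5, Krt14 and Dsp were higher in every wounded than in every unwounded library. Trp63 was at 82.7 to 121 CPM in unwounded and 81 to 118 CPM in wounded libraries. Cdh1 was at 31.6 to 55.5 and 30.8 to 49.6 CPM in the same order. Krt10, Itga6 and Itgb4 also overlapped between wounded and unwounded libraries. Summed fibroblast, melanocyte and endothelial markers reached at most 6.47, 2.27 and 1.87 CPM, and Dcn, Thy1, Tyr, Tyrp1 and Cdh5 were at 0 in all libraries. Of the 6 immune markers, Cd68, which is not confined to immune cells, accounted for nearly all of the sum of 17.8 to 58.7 CPM, and Csf1r, Itgam and Cd207 were at 0 throughout. The Cd68 level was 17.8 to 24.8 CPM in unwounded and 32.9 to 58.7 CPM in wounded libraries. The 13 mitochondrially encoded mRNAs took 6.02% to 9.08% of the counts in unwounded total, 3.79% to 3.94% in unwounded cortical, 2.56% to 3.51% in wounded total and 2.4% to 2.47% in wounded cortical libraries. The keratinocyte sum and the mitochondrial share thus moved with wounding and with fraction, and Cd68 moved with wounding, and their part in the results was not tested.

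Per unit of transcript length, Per1, Nr1d1 and Tef were the most abundant clock mRNAs in every group, and Per2, Per3 and Cry1 were the least. In unwounded total libraries the deposited level in FPKM (fragments scaled by gene length and library size) was 12.1 ± 1.03 for Per1 (SD, n = 3), 10.6 ± 1.52 for Nr1d1 and 6.09 ± 0.376 for Tef. Clock (2.39), Cry2 (1.98), Nr1d2 (1.19) and Dbp (0.811) followed, and Per2 (0.378), Cry1 (0.347) and Per3 (0.193) came last. The ranges of Per1 and Nr1d1 overlapped there, as did those of Nr1d2 and Dbp, Dbp and Per2, and Per2 and Cry1, so those neighbours have no firm order. In wounded cells Nr1d1 was first, at 33.9 ± 3.85 FPKM in the total and 30.9 ± 3.37 FPKM in the cortical fraction, and its range did not touch that of Per1, which was second. Dbp stood in place 7 in both unwounded groups and in place 4 in both wounded groups. In wounded total libraries its range (3.64 to 5.07 FPKM) still overlapped that of Nr1d2 (1.73 to 4.3 FPKM) below it. Per2, Per3 and Cry1 had 0 to 125 counts per library, which limits what can be said of them.

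**Figure D1:**
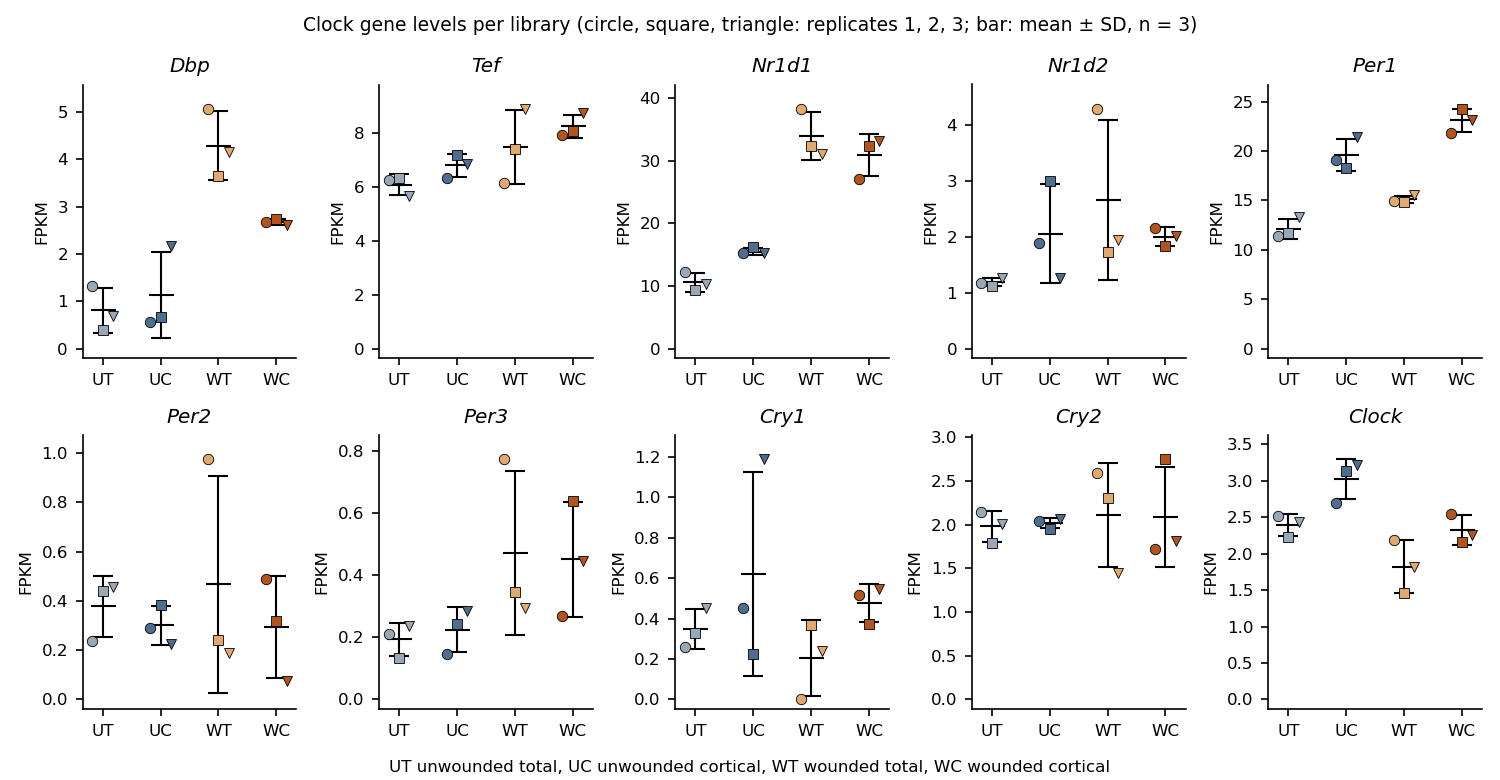
Deposited FPKM of the 10 clock genes in each of the 12 libraries, 1 panel per gene with its own vertical axis, with the total and cortical fractions of unwounded cells (UT and UC) and of wounded cells (WT and WC). Points are libraries and bars are mean ± SD (n = 3). Dbp and Nr1d1 are higher in both wounded groups than in both unwounded groups, Per1 is higher in cortical than in total libraries, and replicate 1 of the wounded total group (circle) stands above its group for Per2, Per3 and Nr1d2.

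After wounding, the output gene Dbp and the REV-ERB gene Nr1d1 were at higher levels in both fractions, Per1 was slightly higher in both, and Clock was lower in both. In the total fraction 8 of the 10 members were higher and 2 lower, with a median log2 fold change of 0.28, against -0.03 over all genes tested. Without wounded total replicate 1 the split was 6 higher and 4 lower, with a median of 0.34 against -0.04, since Per2 and Cry2 were then lower. Among cortical libraries 6 were higher and 4 lower, with a median of 0.16 against 0.02. The 3 wounded libraries lay above the 3 unwounded ones for 5 members in the total fraction (Dbp, Nr1d1, Nr1d2, Per1 and Per3) and for 4 in the cortical fraction (Dbp, Tef, Nr1d1 and Per1). Over all tested genes such a separation upwards occurred for 14.5% in the total and 15.4% in the cortical fraction. Clock was the member whose wounded libraries all lay below the unwounded ones, in both fractions, and over all genes this occurred for 17.6% and 11.5%. Separation in both fractions at once occurred for 6.63% of all genes upwards, as for Dbp, Nr1d1 and Per1, and for 5.2% downwards, as for Clock. Because the members were picked with these differences in view, nothing is read from these shares. In bulk RNA, fewer cells with an mRNA and less of it per cell cannot be told apart.

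Dbp encodes a transcription factor of the PAR bZIP family whose mRNA is among the most strongly rhythmic in mammalian tissues. The gene (ENSMUSG00000059824) lies on chromosome 7 from 45705088 to 45710203, on the plus strand. In unwounded total libraries its level was 4.04, 1.24 and 2.12 CPM in replicates 1 to 3, and in unwounded cortical libraries 1.68, 2.01 and 6.51 CPM. In wounded total libraries it was 15.1, 10.9 and 12.4 CPM, and in wounded cortical libraries 8.11, 8.3 and 7.99 CPM. Every wounded library was above every unwounded library of either fraction, and the nearest unwounded library was cortical replicate 3. These levels rest on 22 to 255 counts per library.

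The mean level of Dbp in the total fraction went from 2.47 ± 1.43 to 12.8 ± 2.15 CPM (SD, n = 3), a log2 fold change of 2.36 ± 0.45 (SE) or 5.12-fold. Its cortical mean went from 3.4 ± 2.7 to 8.13 ± 0.16 CPM, a log2 fold change of 1.32 ± 0.45 or 2.49-fold. The total-fraction difference exceeded that of 99.4% of the tested genes and the cortical one that of 97.5%. The response in the cortical minus that in the total fraction was -1.04 ± 0.63. That gap rests on 1 library: without unwounded cortical replicate 3 the cortical log2 fold change was 2.15 and the gap was -0.2. Without wounded total replicate 1 the total-fraction value was 2.21 ± 0.43. In the other fits tried, the total-fraction value ran from 1.57 to 2.92.

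The last part of Dbp overlaps Sphk2, a sphingosine kinase gene on the opposite strand, over 539 bases or 18% of the Dbp exons, and the libraries were not directional, so reads there cannot be assigned to a strand. Sphk2 itself was at 57.1 CPM in unwounded and 74.6 CPM in wounded total libraries (log2 fold change 0.39, SE 0.1, adjusted p = 0.0163 by edgeR's quasi-likelihood test). Its cortical levels were 69.2 and 76 CPM (0.13, adjusted p = 0.549). How reads in the shared bases were assigned, and so their part in the Dbp values, was not tested.

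Tef, the other PAR bZIP factor among the members, was far more abundant than Dbp and differed little between groups. The gene (chromosome 15, 81802421 to 81826863) had 48.8 ± 3.27 CPM in unwounded total, 53.6 ± 3.32 in unwounded cortical, 58.8 ± 10.7 in wounded total and 65.9 ± 3.62 in wounded cortical libraries. Its wounding difference was 0.27 ± 0.13 (log2, SE) in the total and 0.3 ± 0.13 in the cortical fraction, and the groups overlapped in the total fraction. Without wounded total replicate 1 the total-fraction value was 0.39 ± 0.12. The overlap came from that library (48.3 CPM). Wounded total replicates 2 and 3 had 58.3 and 69.6 CPM, above the highest unwounded total library (51.3 CPM).

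**Figure D2:**
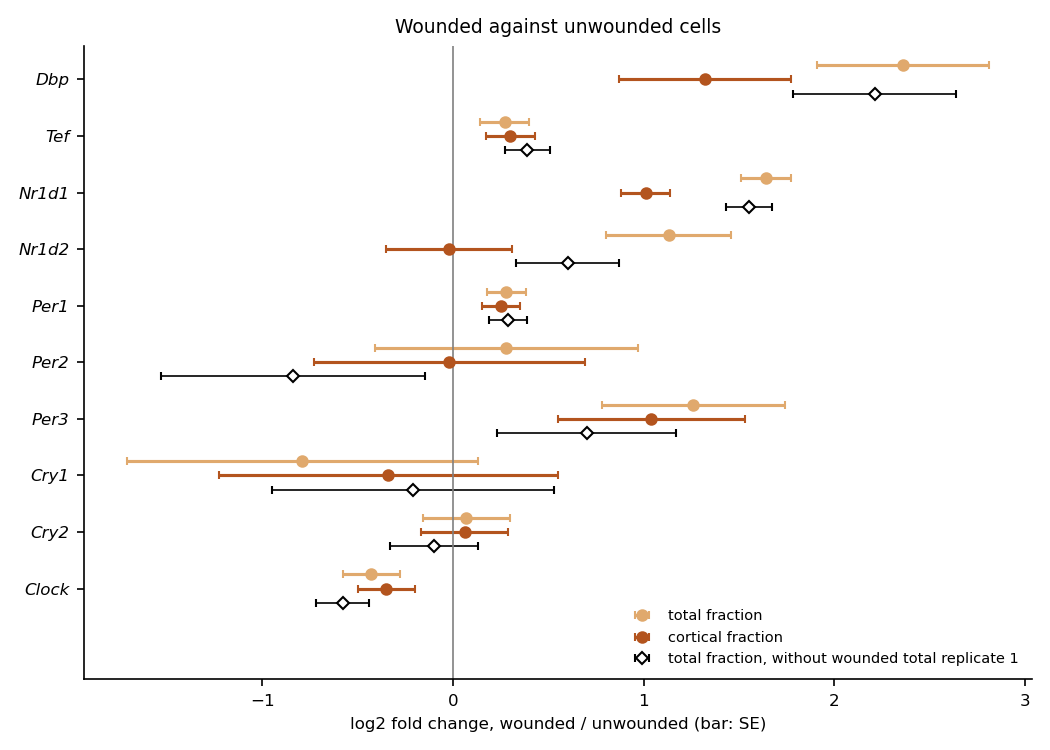
Log2 fold change of wounded over unwounded cells for the 10 clock genes, in the total fraction, in the cortical fraction, and in the total fraction without wounded total replicate 1. Points are edgeR estimates and bars are SE. Dbp has the highest value in both fractions (2.36 and 1.32), and the values of Nr1d2, Per2 and Per3 in the total fraction are lower without the library that stood apart.

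Nr1d1 encodes the nuclear receptor REV-ERBα, which represses Arntl. The gene (ENSMUSG00000020889) lies on chromosome 11 from 98767932 to 98775333, on the minus strand. It had 38.4, 29.4 and 32 CPM in unwounded total libraries and 117, 99.7 and 95 CPM in wounded total libraries. Its cortical levels were 47.3, 50.1 and 46.6 CPM before and 84.3, 101 and 104 CPM after wounding. Wounded and unwounded libraries did not overlap in either fraction, and the replicates of each group lay close together. The log2 fold change on wounding was 1.64 ± 0.13 (SE) in the total and 1.01 ± 0.13 in the cortical fraction, or 3.12-fold and 2.01-fold. The cortical response was below the total response by -0.64 ± 0.18, a difference that was not tested and that kept its sign in all 22 alternatives (-0.78 to -0.49). Nr1d1 shares 263 bases (8.55% of its exons) with the thyroid hormone receptor gene Thra on the other strand. Thra had 51 CPM in unwounded and 68.2 CPM in wounded total libraries (log2 fold change 0.42, SE 0.13, adjusted p = 0.0395, and 0.0579 with the replicate number as a block). The Thra call was also lost when any of 11 single libraries was left out (adjusted p up to 0.223). Thra had 57.7 and 75 CPM in the cortical fraction (0.38, adjusted p = 0.137, or 0.0156 without wounded total replicate 1).

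Nr1d2, which encodes the related receptor REV-ERBβ, differed less, and its difference depended on 1 library. The gene (chromosome 14, 18204054 to 18239127, minus strand) had 6.41, 6.27 and 6.95 CPM in unwounded total and 23.2, 9.38 and 10.5 CPM in wounded total libraries. In wounded total libraries replicate 1 held 2.34 times the mean of the other two, which were themselves above all 3 unwounded libraries. The log2 fold change was 1.13 ± 0.33 with this library and 0.6 ± 0.27 without it. Cortical values were 10.4, 16.3 and 6.81 CPM before and 11.9, 10.1 and 11.2 CPM after wounding, so the groups overlapped (-0.02 ± 0.33). The cortical minus total response was -1.15 ± 0.46, or -0.62 ± 0.36 without that library.

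The 3 Period genes encode repressors of CLOCK and BMAL1 and did not share a pattern. Per1 (ENSMUSG00000020893, chromosome 11, 69095217 to 69109960, plus strand) had 65.3, 67.5 and 75.9 CPM in unwounded total, 83.7, 83.6 and 86.6 in wounded total, 108, 103 and 120 in unwounded cortical and 125, 138 and 133 in wounded cortical libraries. The 4 groups did not overlap, and their order was unwounded total, wounded total, unwounded cortical, wounded cortical. The wounding difference was small, 0.28 ± 0.1 in the total and 0.25 ± 0.1 in the cortical fraction (log2, SE), or 1.22-fold and 1.19-fold.

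Per3 (chromosome 4, 151003652 to 151044665, minus strand) was at low levels in all groups. It had 2.06, 1.3 and 2.3 CPM in unwounded total and 7.42, 3.31 and 2.82 CPM in wounded total libraries, where replicate 1 again stood above the other two. Its log2 fold change there was 1.26 ± 0.48, or 0.7 ± 0.47 without that library. In the cortical fraction the levels were 1.41, 2.34 and 2.75 CPM before and 2.61, 6.23 and 4.36 CPM after wounding, which overlapped (1.04 ± 0.49). Both Per3 values are from 23 to 125 counts per library.

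Per2 (chromosome 1, 91415982 to 91459324, minus strand) gave no direction on wounding. It had 1.4, 2.65 and 2.71 CPM in unwounded total and 5.7, 1.4 and 1.1 CPM in wounded total libraries. Replicate 1 of the wounded total group was 4.54 times the mean of the other two, and leaving it out turned the log2 fold change from 0.28 ± 0.69 to -0.84 ± 0.69. The cortical groups had means of 1.77 and 1.74 CPM before and after wounding (-0.02 ± 0.71).

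The Cryptochromes, which join the Periods in the repressor complex, showed no separation of wounded from unwounded libraries. Cry1 (chromosome 10, 85131700 to 85185064) was the least abundant member by counts, with 0 to 43 per library. Wounded total replicate 1 had a count of 0 for Cry1, which by counting error alone allows a level of up to 0.178 CPM (3 counts). In that library 32.7% of the genes expected at 10 to 20 counts were at 0, so the level of Cry1 may have been higher. The Cry1 wounding difference was -0.79 ± 0.92 in the total fraction, or -0.21 ± 0.74 without that library, and -0.34 ± 0.89 in the cortical fraction. Cry2 (chromosome 2, 92403646 to 92434043) had group means between 12.7 and 13.4 CPM, with differences on wounding of 0.07 ± 0.23 in the total fraction, or -0.1 ± 0.23 without wounded total replicate 1, and 0.06 ± 0.23 in the cortical fraction.

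Clock, the activator of the loop, was lower after wounding in both fractions. The gene (ENSMUSG00000029238) lies on chromosome 5 from 76209868 to 76304792, on the minus strand. It had 35.1, 31.4 and 33.8 CPM in unwounded total and 29.9, 20 and 24.7 CPM in wounded total libraries. Cortical libraries had 37.3, 43.2 and 44 CPM before and 35.6, 30 and 31.6 CPM after wounding. The groups did not overlap in either fraction, although the margin was narrow in both. The log2 fold change was -0.43 ± 0.15 in the total fraction, -0.58 ± 0.14 without wounded total replicate 1, and -0.35 ± 0.15 in the cortical fraction.

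**Figure D3:**
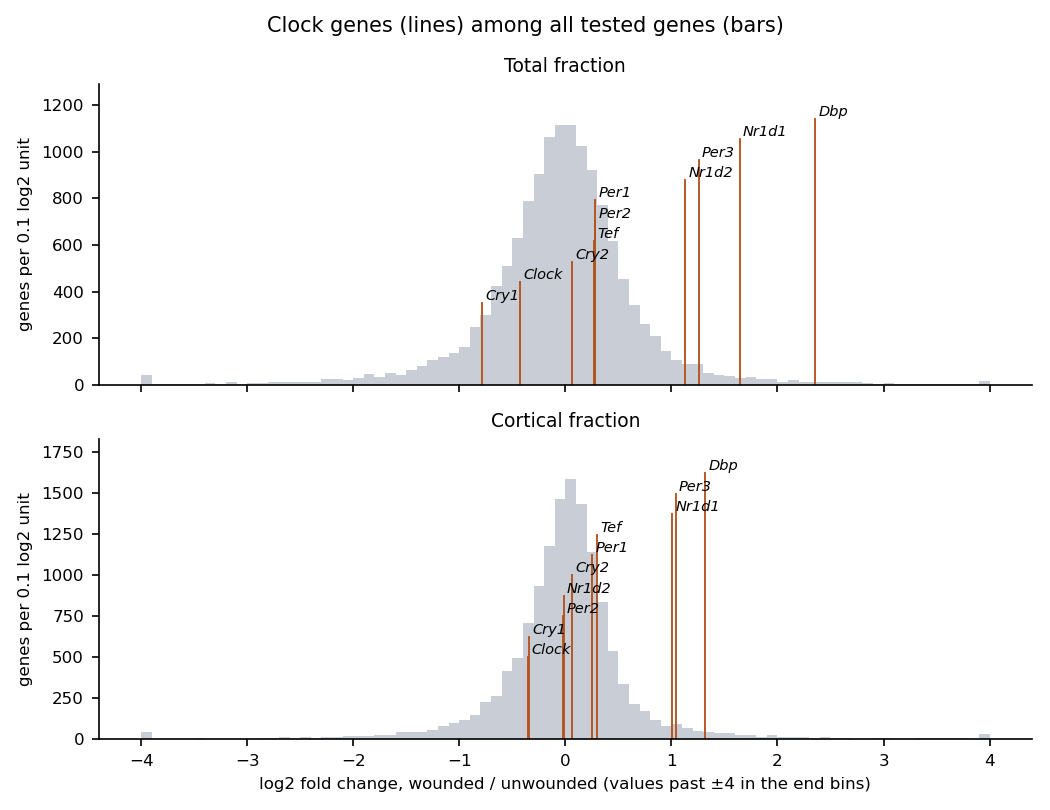
Log2 fold change on wounding of all 13571 tested genes (grey bars, genes per bin of 0.1 log2 units) in the total (upper panel) and cortical (lower panel) fraction, with the 10 clock genes as lines whose heights carry no value. Dbp lies above 99.4% of the genes in the total and 97.5% in the cortical fraction, Nr1d1 above 98.3% and 95.9%, and Clock above 22% and 18.8%.

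The comparison of cortical with total RNA asked how each clock mRNA was divided between the part of the translating RNA captured by way of the desmoplakin fusion and the rest. Per1 was higher in the cortical fraction of both unwounded and wounded cells, and Nr1d1 was higher in the cortical fraction of unwounded cells. In unwounded cells these 2 of the 10 members passed an adjusted p of 0.05 (edgeR, adjusted over 13571 genes), where 14.2% of all tested genes passed, 6.62% as higher and 7.59% as lower. In wounded cells 1 of 10 passed, Per1, where 15.7% of all genes passed, 7.62% as higher and 8.03% as lower. In unwounded cells the cortical libraries lay wholly above the total ones for 3 members (Per1, Nr1d1 and Clock) and wholly below for 0, where 17.1% and 19.1% of all genes did so. In wounded cells they lay wholly above for 3 (Per1, Clock and Cry1) and below for 1 (Dbp), where 16.2% and 12.9% did so. The median of the members was 0.35 in unwounded and -0.02 in wounded cells, against 0 and 0.04 over all genes. Without wounded total replicate 1 the members called were 3 in unwounded cells (Nr1d2 added, 22.4% of all genes called) and 2 in wounded cells (Clock added, 24.7%). The wounded median was then 0.32, against 0.06 over all genes, with 8 members higher and 2 lower in place of 5 and 5. The 2 comparisons use different libraries but share 1 estimate of spread.

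For Per1 the log2 fold change, cortical over total, was 0.67 (SE 0.1, adjusted p = 0.000419) in unwounded and 0.64 (SE 0.1, adjusted p = 0.000729) in wounded cells, or 1.59-fold and 1.56-fold. Every cortical library was above every total library, and the call held in all 23 alternatives of each comparison (log2 fold changes 0.6 to 0.86 and 0.47 to 0.86). Averaged over both treatments Per1 had 0.65 (SE 0.07, adjusted p = 8.46e-06), and 0.53 with a trend on gene length removed from each library.

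Nr1d1 rose from 33.3 ± 4.65 CPM in the total to 48 ± 1.84 CPM in the cortical fraction of unwounded cells (0.53 on the log2 scale, SE 0.13, adjusted p = 0.0103), and the libraries did not overlap. The call was kept in 22 of 23 alternatives and lost without unwounded total replicate 2 (0.46, adjusted p = 0.0627). In wounded cells Nr1d1 had 104 ± 11.9 CPM in the total and 96.5 ± 10.7 CPM in the cortical fraction (-0.11, SE 0.12, adjusted p = 0.614). Averaged over both treatments it had 0.21 (SE 0.09, adjusted p = 0.0942), or 0.25 (adjusted p = 0.0188) without wounded total replicate 1.

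Nr1d2 had 6.54 ± 0.362 CPM in the total and 11.2 ± 4.8 CPM in the cortical fraction of unwounded cells and did not pass (0.77, SE 0.33, adjusted p = 0.141). Without wounded total replicate 1, which enters that comparison through the shared estimate of spread, it passed (adjusted p = 0.0255). In wounded cells its value was -0.38 (SE 0.32, adjusted p = 0.491), or 0.15 without that library. Dbp did not pass in either comparison. Its value was 0.38 (SE 0.47, adjusted p = 0.701) in unwounded cells, where 1 cortical library was high, and -0.65 (SE 0.42, adjusted p = 0.338) in wounded cells, where all 3 cortical libraries lay below all 3 total libraries.

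Averaged over both treatments, 2 of 10 members passed, Per1 and Clock, where 26.8% of all genes passed, 13.5% as higher and 13.3% as lower. Clock was higher in the cortical fraction by 0.35 (SE 0.1, adjusted p = 0.0193), from 29.1 to 37 CPM. It did not pass within unwounded cells (0.31, adjusted p = 0.186) or within wounded cells (0.38, adjusted p = 0.0894), although the libraries did not overlap in either. Without wounded total replicate 1 it passed within wounded cells (0.54, SE 0.14, adjusted p = 0.0076). Clock has a long transcript, 13727 bases of merged exons, and with the gene length trend removed its value was 0.05 (adjusted p = 0.798). The other members, Tef, Per2, Per3, Cry1 and Cry2, did not pass in any of the 3 comparisons, with values between -0.65 and 1.25 and SE between 0.09 and 0.92.

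**Figure D4:**
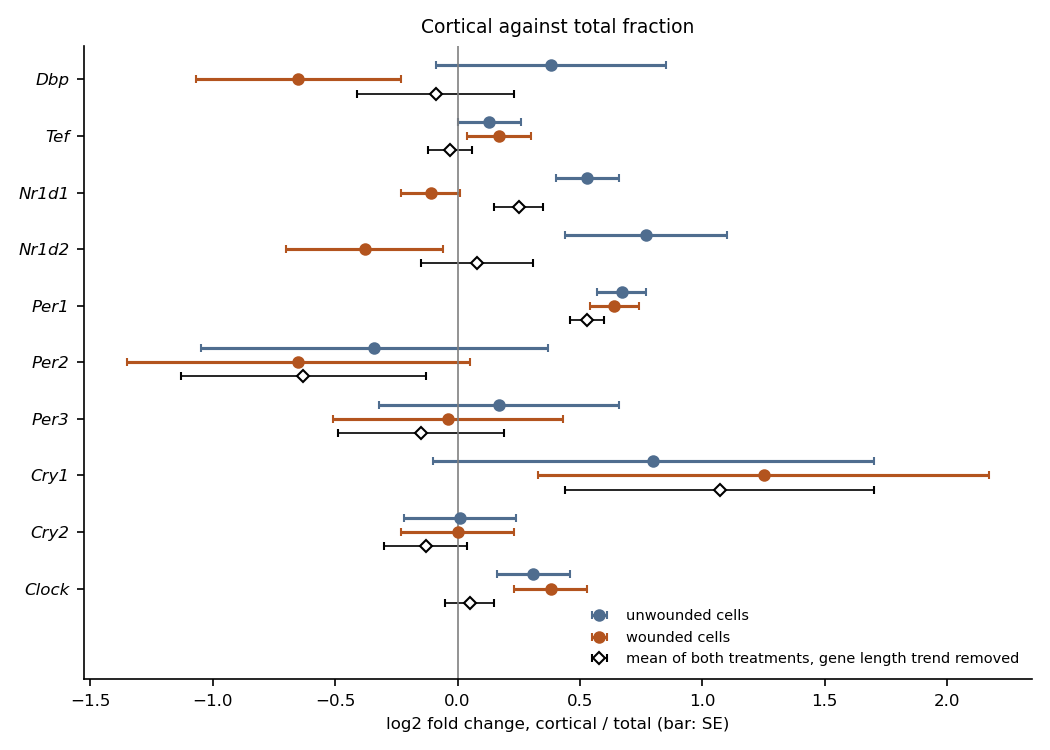
Log2 fold change of the cortical over the total fraction for the 10 clock genes, in unwounded cells, in wounded cells, and as the mean of both treatments with a trend on gene length removed. Points are edgeR estimates and bars are SE. Per1 is above 0 in all 3, Nr1d1 is above 0 in unwounded cells (0.53) and near 0 in wounded cells (-0.11), and Clock is near 0 once the length trend is removed (0.05).

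A wider list of 38 clock loop genes, of which 35 could be tested, held partners, kinases, ubiquitin ligases and co-regulators of the members. On wounding, 3 of the 35 passed in the total fraction, 2 higher and 1 lower, where 15.6% of all genes passed, 8.39% as higher and 7.2% as lower. This count ran from 2 to 10 over the alternatives. It was 7 (6 higher, 1 lower) with the gene length trend removed, where 1914 of all genes were called higher and 675 lower. Without wounded total replicate 1 it was 5 (2 higher, 3 lower), where 24.9% of all genes passed. Because the list was chosen with earlier results of these data known, nothing is read from these shares. Ddb1, a subunit of a cullin ubiquitin ligase that acts on CRY1, rose from 134 ± 7.37 to 239 ± 14.7 CPM, by 0.83 on the log2 scale (SE 0.09, adjusted p = 2.9e-05). Tipin, the partner of TIMELESS, fell from 69.8 ± 10.2 to 35.1 ± 4.84 CPM (-0.99, SE 0.13, adjusted p = 0.000167). Ciart, which encodes a repressor of CLOCK and BMAL1 and is itself a target of theirs, rose from 3.25 ± 1.58 to 7.98 ± 4.16 CPM (1.28, SE 0.4, adjusted p = 0.0374). The Ciart call was lost without wounded total replicate 1 (0.78, adjusted p = 0.135) and without unwounded total replicate 2 or 3 (adjusted p = 0.136 and 0.15).

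In the cortical fraction 0 of the 35 passed on wounding by edgeR, where 2.48% of all genes passed (1.6% higher, 0.884% lower), while 6 had an unadjusted p under 0.05. DESeq2 called 2 and limma's voom with library quality weights called 4. Without wounded total replicate 1 edgeR called 4, where 9.07% of all genes passed. Ciart had 3.41 ± 0.856 CPM before and 7.47 ± 1.21 CPM after wounding there (1.12, SE 0.4, adjusted p = 0.15). Arntl, the gene of BMAL1 and a target of REV-ERBα, had 17.7 ± 1.98 and 14.5 ± 5.36 CPM in the total fraction (-0.29, SE 0.25, adjusted p = 0.5), where replicate 1 of the wounded group (20.6 CPM) lay well above the other two. Without that library its value was -0.63 (adjusted p = 0.0393). In the cortical fraction Arntl had 16.1 ± 2.64 and 17.8 ± 4.93 CPM (0.15, adjusted p = 0.834). Rora, which encodes an activator that competes with the REV-ERBs, was at 0 counts in all 12 libraries.

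Between fractions most genes of the wider list did not pass in either treatment, and most of those that passed were higher in the cortical RNA. In unwounded cells 8 of 35 passed (22.9%, against 14.2% of all genes), 7 higher and 1 lower, with a median of 0.25 against 0 over all genes. In wounded cells 8 passed (22.9% against 15.7%), 7 higher and 1 lower, with a median of 0.29 against 0.04. Averaged over treatments 15 passed (42.9% against 26.8%), 13 higher and 2 lower. After removal of the gene length trend the 3 comparisons gave 4 (3 higher, 1 lower), 2 (1 higher, 1 lower) and 8 (7 higher, 1 lower). Over all 13571 genes that fit called 727 higher and 698 lower, 372 and 1078, and 1040 and 1529, in the same order. Without wounded total replicate 1 the 3 comparisons gave 14, 16 and 17, where 22.4%, 24.7% and 33.9% of all genes passed. Because the list was chosen with earlier results of these data known, nothing is read from these shares. The chromatin remodeller gene Chd4 was higher by 0.66 in unwounded cells (SE 0.12, adjusted p = 0.00196) and by 0.6 over both treatments, and was called in all alternatives of both. Csnk2b, the regulatory subunit of casein kinase 2, was the one called lower in both treatments, by -0.76 (SE 0.14, adjusted p = 0.00163) in unwounded cells and -0.53 (adjusted p = 0.0148) in wounded cells. Sik1, a salt-inducible kinase gene, was higher by 0.48 (adjusted p = 0.00397) and 0.6 (adjusted p = 0.00108). These 3 genes kept their direction with the length trend removed.

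The ubiquitin ligase gene Ube3a was higher in the cortical fraction by 0.62 (adjusted p = 0.00212) and 0.65 (adjusted p = 0.00164) in unwounded and wounded cells, and Huwe1, another ligase gene, by 0.51 (adjusted p = 0.0186) in unwounded cells. With the length trend removed Ube3a had 0.33 and 0.22 and Huwe1 had 0.2, and neither passed. Ncor1, the co-repressor that REV-ERBα recruits, was higher by 0.46 (adjusted p = 0.00719) in unwounded and by 0.63 (adjusted p = 0.00114) in wounded cells. The wounded value of Ncor1 was 0.28 with the trend removed, which did not pass. Sirt1, a deacetylase gene, was higher in wounded cells by 0.98 (SE 0.26, adjusted p = 0.018) and did not pass with the trend removed (adjusted p = 0.0569).

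A second list held 29 genes often used as clock outputs, 25 of them tested. On wounding, 8 passed in the total fraction (32%, against 15.6% of all genes), 3 higher and 5 lower, with a median of -0.13 against -0.03 over all genes. That count ran from 3 to 13 over the alternatives. It was 7 (4 higher, 3 lower) with the gene length trend removed, where 1914 of all genes were called higher and 675 lower. Without wounded total replicate 1 it was 12, where 24.9% of all genes passed. For the cortical fraction 3 passed (12%, against 2.48%), 2 higher and 1 lower, and 1 to 6 passed over the alternatives. This list too was chosen with earlier results of these data known, so nothing is read from these shares. The 3 that passed in both, chosen for naming after their values were seen, were Tsc22d3, Sgk1 and Mat2a. Tsc22d3, a glucocorticoid-induced gene, rose from 213 ± 14.4 to 489 ± 19.3 CPM in the total (1.2 on the log2 scale, SE 0.1, adjusted p = 7.2e-07) and from 252 ± 4.79 to 429 ± 13.2 CPM in the cortical fraction (0.76, adjusted p = 0.000391). Sgk1, a serum- and glucocorticoid-induced kinase gene, rose by 0.86 (SE 0.22, adjusted p = 0.0133) and 0.96 (adjusted p = 0.0248). Mat2a, which encodes the enzyme that makes S-adenosylmethionine, fell by 1.27 (SE 0.17, adjusted p = 0.000137) and by 0.73 (adjusted p = 0.0261) on the log2 scale. The cortical calls of Sgk1 and Mat2a were each lost when any of several single libraries was left out (adjusted p up to 0.127 and 0.116).

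Across the 12 libraries, the protein-coding genes whose log2 CPM followed Dbp most closely, among 8849 with a mean of at least 100 counts, were Mkln1 (Pearson r = 0.938), Smyd4 (0.936), the gene deposited as Vsp35l (0.929), Klc4 (0.928) and Yipf3 (0.926). The libraries fall into 4 groups that they share, so these are descriptions of likeness. Klc4, a kinesin light chain gene, went from 17.1 ± 2.41 to 39.4 ± 1.46 CPM in the total and from 19.3 ± 1.32 to 33.6 ± 1.3 CPM in the cortical fraction, a smaller fold than Dbp. For Nr1d2 the closest were Rnf215 (0.906), Dync1li2 (0.905), Hadha (0.904), Otud5 (0.887) and Slc46a1 (0.86), and for Per2 they were Chac1 (0.85), Gcsh (0.849), Otud3 (0.809), Tedc2 (0.802) and B4galnt1 (0.79). Over the 11 libraries without wounded total replicate 1, 4 of the 5 genes closest to Dbp were again among its 5 closest. None of the 5 genes closest to Nr1d2 was again among its 5 closest, and their r fell to between 0.729 and 0.87. For Per2, Chac1 (0.927) and B4galnt1 (0.842) were again among the 5 closest. Gcsh, Otud3 and Tedc2 were not, and their r fell to 0.763, 0.756 and 0.723. Among the members, Dbp followed Nr1d1 (r = 0.878) and Per3 (0.8) most closely over 12 libraries, and Nr1d1 and Per3 had r = 0.809 with each other. Without wounded total replicate 1 these were 0.856, 0.758 and 0.779. Tef with Nr1d1 then went from 0.659 to 0.899, and Dbp with Tef from 0.523 to 0.758.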

How the data were processed

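Per the labels, poly(A) RNA was primed with random hexamers and sequenced as non-directional libraries. Per the submitters' processing notes, CASAVA and HISAT2 were used with build mm10. The counting tool and annotation were not given in the sources used here. The authors deposited raw counts per gene and FPKM values, per the file headers and the values. FPKM used a library size of 0.825 to 1.1 times the total. Unused per-sample columns numbered 0. Gene coordinates equalled GENCODE M21 (GRCm38) for 98.3% of 54495 shared genes.

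Counts were fitted in R 4.3.3 with edgeR 4.0.16 (filterByExpr, TMM, quasi-likelihood F test, two-sided, Benjamini-Hochberg over 13571 genes, threshold 0.05), 1 mean per group over all 12 libraries. CPM used TMM library sizes. Likeness used log2 CPM with a prior count of 2. Alternatives used DESeq2 1.42.0, limma 3.58.1 on the deposited FPKM after log2 with a pseudocount of 1 or 0.1, other scalings and filters, a loess gene length trend (span 0.5), the replicate block, only the groups compared, and each library left out. Voom with quality weights and the likeness over 11 libraries were added after seeing the data. On simulated counts of the unwounded fraction comparison (13084 genes, 200 changed by 1 log2 unit) edgeR recovered 50.5% with 2.88% of calls false, and DESeq2 55% with 17.3% false. These counts were drawn from edgeR's own estimates of spread, with no composition difference, no gene length bias and no library that stood apart. RLE and library size alone gave the same 50.5% and 2.88% there. In a second simulation with a gene length bias in the unwounded cortical libraries, edgeR made 1556 calls, 92.4% of them false. Removing the length trend left 106 calls there, 3.77% of them false. The rates therefore do not carry over to the real libraries. Deviations of same-numbered libraries had correlations of -0.0331 to 0.0913 over 12 pairs of libraries, and the fraction tests treated libraries as unpaired. By the protocol, a cortical and a total library of the same treatment can come from the same translating fraction. With 3 libraries per group, these correlations cannot decide whether same-numbered libraries did. The replicate block used the same numbers across both treatments, so pairs within each treatment were not tested.

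The members and gene lists were chosen with earlier results of these data known. Named genes were all 10 members, up to 5 called genes per comparison of the wider clock list by size of change (1 is not reported here), and the 5 genes most like Dbp, Nr1d2 and Per2. Figures used python 3.11.15 and matplotlib 3.10.9.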

Additional observations from a re-analysis of the deposited data

How the results depend on the processing

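Counts of members called. In the mean of both treatments the count of 2 members was 4 with library size alone and with voom, and 1 with the gene length trend removed and with either FPKM fit. Leaving out 1 library gave 1 to 3 members in unwounded cells, 1 to 2 in wounded cells and 1 to 3 in the mean, and leaving out wounded total replicate 1 gave the highest of each. In wounded cells the count of 1 was 3 with library size alone and 2 with voom.

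Counts over all genes. The counts of genes called were 3708 (voom) and 3014 (only the groups compared) between fractions in unwounded cells, against 1928, and 4441 and 970 in wounded cells, against 2124. On wounding they were 5206 and 1175 in the total fraction, against 2116, and 1316 and 1423 in the cortical fraction, against 337. In the cortical fraction library size alone gave 199, DESeq2 736 and no filter 559. Leaving out 1 library gave all genes called as 949 to 3151 and 1084 to 3475 between fractions in unwounded and wounded cells, and 1128 to 3502 and 108 to 1276 on wounding in the total and cortical fractions. The highest of each range was without wounded total replicate 1. With library size alone the median of all genes moved by 0.19 and 0.21 in the 2 fraction comparisons, and their calls split into 1582 higher and 469 lower, and 2203 and 520, against 898 and 1030, and 1034 and 1090. For wounding the splits were then 708 and 1104 in the total fraction (1139 and 977 with TMM) and 108 and 91 in the cortical fraction (217 and 120). With the length trend removed the wounded fraction comparison split into 372 and 1078, and wounding in the total fraction into 1914 and 675, where the median moved by 0.11.

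With the replicate number as a block, the counts of all genes called were 1857 and 1985 between fractions, 3535 for the mean, and 2038 and 276 on wounding. Members called were 2, 1 and 2, as without the block, and of the named genes the block ended the call of Thra on wounding in the total fraction (adjusted p = 0.0579).

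Reversed signs were found for fraction differences that did not pass the test. Cry2 had 0 (mean of at least 50 counts), -0.13 (length trend removed) and -0.06 (voom) in the mean, -0.09 and -0.04 in unwounded cells, and -0.02 (RLE, DESeq2), -0.01 (mean of at least 50 counts, both FPKM fits), -0.18 (length) and -0.08 (voom) in wounded cells. Dbp had 0.05 in the mean with library size alone and -0.32 in unwounded cells with voom. Nr1d1 had 0.09 in wounded cells with library size alone. Nr1d2 had 0.18 in wounded cells with voom. Per3 had -0.15 in the mean (length), -0.06 in unwounded cells (voom), and 0.11 (library size alone) and 0.18 (voom) in wounded cells. Tef had -0.03, 0 and -0.06 in the mean, unwounded and wounded cells with the length trend removed. Leaving out 1 library turned the sign for Cry1 (-0.03 to 1.2 in unwounded cells), Cry2 (-0.12 to 0.09 in the mean, -0.04 to 0.09 unwounded, -0.23 to 0.17 wounded), Dbp (-0.55 to 0.16 in the mean, -0.45 to 0.97 unwounded), Nr1d2 (-0.61 to 0.15 wounded), Per2 (-0.8 to 0.06 in the mean, -1.24 to 0.47 wounded) and Per3 (-0.1 to 0.34 in the mean, -0.04 to 0.42 unwounded, -0.37 to 0.51 wounded). Some wounding differences, which were not tested in the members, also turned sign when 1 library was left out. In the total fraction these were Per2 (-0.84 to 0.66) and Cry2 (-0.1 to 0.27). In the cortical fraction they were Nr1d2 (-0.26 to 0.35), Per2 (-0.62 to 0.44), Cry1 (-0.73 to 0.49) and Cry2 (-0.17 to 0.19). The cause was not tested.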
